A study of Fagopyrum tataricum with 9 samples.

Results

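The 2 glutelin genes of Tartary buckwheat (Fagopyrum tataricum) described here, FtPinG0000417000.01 and FtPinG0008579200.01, were taken by their identifiers from the 16 storage protein genes that the study drew in a figure, out of 33940 genes in the deposited tables. The study labels both genes as glutelin and places both in the 11S seed storage protein family. The other 14 genes of that figure are labelled globulin, 6 of them in the same 11S family and 8 in the peptidase A1 family. The figure was assembled from differentially expressed genes (DEGs) of these same libraries, so a change in any of its genes is not independent evidence.

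Seeds of the cultivar XIQIAO NO.2, grown in a field, were harvested at the green fruit stage (13 days postanthesis, DPA), the discoloration stage (19 DPA) and the initial maturity stage (25 DPA). Each stage had 3 libraries, from 3 plants, giving 9 libraries of RNA sequencing in all. The seeds of the 3 stages came from the same individual by the labels, which do not say whether a replicate number marks a plant. All libraries came from a single cultivar, and in bulk samples of seed fewer cells of a type and less RNA per cell cannot be told apart.

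Seed storage proteins are the nitrogen reserve that the seedling draws on after germination. The name glutelin refers to solubility, since glutelins need dilute acid or alkali to dissolve whereas globulins dissolve in salt solution. By sequence, the glutelins of rice belong with the 11S legumin-type globulins. Proteins of this family are made as precursors, cleaved into an acidic and a basic chain, and packed into protein storage vacuoles, and the legumin-type globulin is the main storage protein of buckwheat grain. In the genes labelled peptidase A1, the link to storage is known from soybean, whose basic 7S globulin resembles aspartic peptidases.

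The libraries held between 22002318 and 25811462 counts. The 6 genes labelled 11S globulin, which mark storage tissue, were abundant in sum in every library, although 1 of them, FtPinG0004288700.01, had only 0 to 84 counts. Together they took 2.74% to 9.98% of all counts in the green fruit libraries, 16.8% to 21.6% in those of the discoloration stage and 15.7% to 17.3% in those of initial maturity. The 10 most abundant genes together held 5.82% to 18.0% of the counts at 13 DPA and 29.3% to 36.5% at the later stages. FPKM, the deposited unit corrected for gene length, divides by the library total, and edgeR's TMM (trimmed mean of M values) factors, which rescale that total so that most genes keep their level, were 1.31 to 1.81 at 13 DPA and 0.652 to 0.971 later. With totals alone, the median shift over the 23609 genes tested was, on the log2 scale, -0.85 from 13 to 19 DPA, -0.32 from 19 to 25 DPA and -1.19 from 13 to 25 DPA, against -0.03, -0.02 and -0.07 with TMM. Replicate 2 of 13 DPA stood apart from the other 13 DPA libraries in both glutelin genes and in its 11S share of 9.98%, and the tests of the glutelin genes are given with and without it.

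FtPinG0000417000.01 was the less abundant of the glutelin genes. It had 229, 804 and 223 counts in the 3 libraries of 13 DPA, 72, 65 and 62 counts at 19 DPA, and 435, 650 and 540 counts at 25 DPA. The 19 DPA libraries were the lowest, and replicate 2 of 13 DPA was the highest of the 9. In the deposited FPKM the levels were 9.20, 30.2 and 9.81 in green fruit, 3.06, 2.72 and 2.69 at discoloration, and 18.8, 26.6 and 22.1 at initial maturity. The mean FPKM was 16.4 ± 11.9 (SD, n = 3) in green fruit, 2.82 ± 0.21 at discoloration and 22.5 ± 3.93 at initial maturity. Leaving out replicate 2 gave a green fruit mean of 9.50 (n = 2). On this scale 13 and 25 DPA overlapped through replicate 2 of 13 DPA, while every 19 DPA library was below every other library. In FPKM, 57.3% of the genes tested had all 19 DPA libraries below all 13 DPA libraries and 15.5% had all 25 DPA libraries above all 19 DPA libraries.

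After TMM scaling, FtPinG0000417000.01 stood at 5.91, 23.8 and 5.61 CPM (counts scaled to a common library size) at 13 DPA, 3.26, 3.84 and 2.86 CPM at 19 DPA, and 26.3, 34.9 and 35.0 CPM at 25 DPA. The stages did not overlap on this scale, and their order was 19 DPA, then 13 DPA, then 25 DPA. Of all genes tested, 16.3% had every 19 DPA library below every 13 DPA library in TMM-scaled CPM, 25.6% had every 25 DPA library above every 19 DPA library, and 28.9% had every 25 DPA library above every 13 DPA library.

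FtPinG0008579200.01 was the more abundant gene, and its deposited FPKM exceeded that of FtPinG0000417000.01 in 9 of 9 libraries. It had 2343, 5083 and 1873 counts at 13 DPA, 1135, 1094 and 948 counts at 19 DPA, and 1480, 1907 and 1928 counts at 25 DPA. Replicate 2 of 13 DPA was again the highest of all libraries, with at least 2.17 times the counts of either other 13 DPA library. In deposited FPKM its levels were 82.0, 166 and 71.8 in green fruit, 42.1, 39.9 and 35.8 at discoloration, and 55.8, 68.1 and 68.6 at initial maturity. The mean FPKM was 107 ± 51.7 (SD, n = 3) in green fruit, 39.3 ± 3.19 at discoloration and 64.1 ± 7.27 at initial maturity. Leaving out replicate 2 gave a green fruit mean of 76.9 (n = 2). In FPKM the stages did not overlap and 13 DPA was the highest, and 65.7% of the genes tested likewise had all 25 DPA libraries below all 13 DPA libraries on that scale.

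After TMM scaling, FtPinG0008579200.01 stood at 60.4, 150 and 47.1 CPM at 13 DPA, 51.4, 64.6 and 43.8 CPM at 19 DPA, and 89.6, 102 and 125 CPM at 25 DPA. The libraries of 13 and 19 DPA overlapped on this scale, as did those of 13 and 25 DPA. All 3 libraries of 25 DPA were above all 3 of 19 DPA, as in 25.6% of all genes tested. The highest stage thus depended on the scale for this gene, 13 DPA in FPKM and 25 DPA in TMM-scaled CPM, whereas the mean of 19 DPA was the lowest on both scales for both genes. The TMM-scaled means of FtPinG0008579200.01 at 13 and 19 DPA were 53.8 and 53.3 CPM, nearly equal, when replicate 2 of 13 DPA was left out. A lowest mean at 19 DPA was found in 29.4% of genes tested in FPKM and in 21.3% in TMM-scaled CPM.

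**Figure D1:**
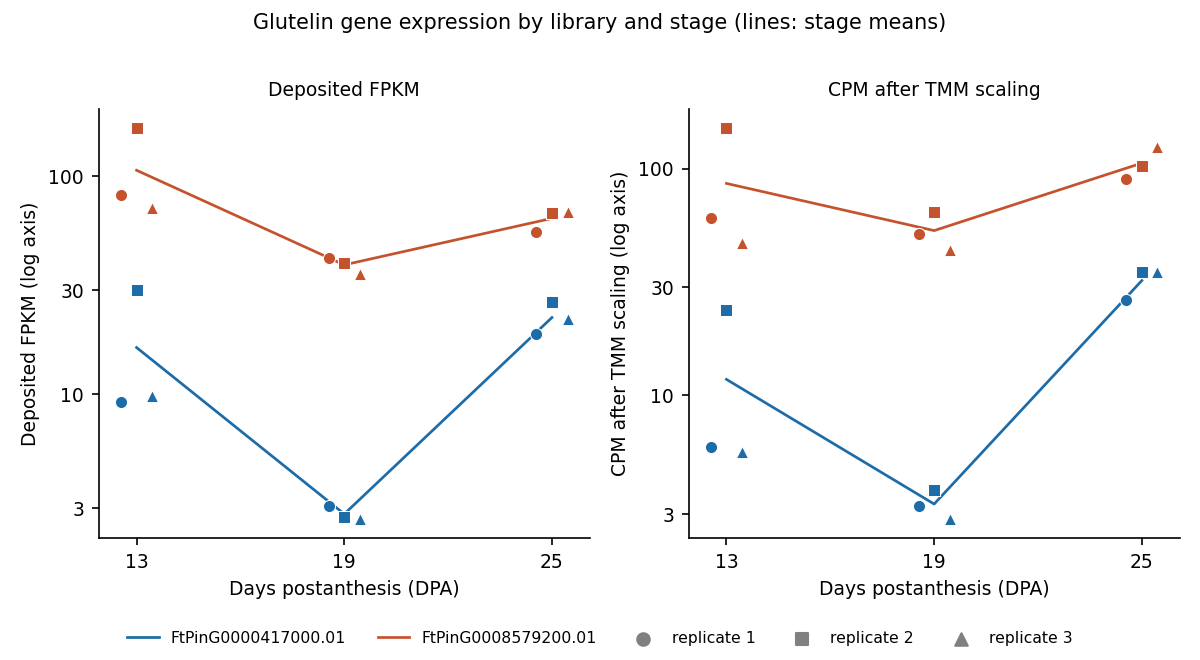
Level of each glutelin gene in each library against days postanthesis, as deposited FPKM on the left and as TMM-scaled CPM on the right, both on log axes. Points are libraries, shaped by replicate number, and lines join stage means. The 19 DPA libraries of FtPinG0000417000.01 are the lowest on both scales, and replicate 2 of 13 DPA lies well above the other 13 DPA libraries for both genes.

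The rank of each gene within a library places these levels among all genes. FtPinG0008579200.01 ranked between 708th, in replicate 2 of 13 DPA, and 2856th, in replicate 3 of 19 DPA, by deposited FPKM, which is length-corrected. FtPinG0000417000.01 ranked between 3357th, in replicate 2 of 25 DPA, and 16657th, in replicate 3 of 19 DPA. At 19 DPA the latter lay below the middle of the detected genes, at 57.4% to 61.0% of the way down the list, and at 25 DPA it was within the top 12.9% to 17.4%. The gene lengths implied by the deposited FPKM were 1033 bases for FtPinG0000417000.01 and 1186 bases for FtPinG0008579200.01.

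The first comparison asked how the genes differed between the green fruit and discoloration stages. Neither glutelin gene passed the test, against 8.57% of the 23609 genes tested (4.11% higher and 4.46% lower at 19 DPA). A DEG here had a false discovery rate (FDR) of at most 0.05 by edgeR's quasi-likelihood test with Benjamini-Hochberg adjustment over all genes tested, and a log2 fold change of 1 or more in size. For FtPinG0000417000.01 the log2 fold change was -1.82 ± 0.53 (SE), with an FDR of 0.0620. On both scales all 3 libraries of 19 DPA were below all 3 of 13 DPA for this gene. That was so in 16.3% of all genes tested in TMM-scaled CPM and in 57.3% in FPKM. For FtPinG0008579200.01 the log2 fold change was -0.69 ± 0.40 (SE), with an FDR of 0.316.

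Both values depended on replicate 2 of 13 DPA. Without it the log2 fold change was -0.79 (FDR 0.0408, short of the fold limit) for FtPinG0000417000.01 and -0.01 (FDR 0.986) for FtPinG0008579200.01. The replicate numbers were taken to pair the libraries of 13 and 19 DPA. With the replicate number as a block FtPinG0000417000.01 passed the test at -1.57 (FDR 0.0499). With totals in place of TMM factors both genes were called lower at 19 DPA, at -2.54 (FDR 0.00556) and -1.44 (FDR 0.00947), beside the median of -0.85 for all genes on that scale. DESeq2 called FtPinG0000417000.01 at -1.82 (adjusted p 0.00646).

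The second comparison covered the discoloration to the initial maturity stage. FtPinG0000417000.01 rose 9.67-fold, with a log2 fold change of 3.27 ± 0.56 (SE) and an FDR of 0.00261. It was 1 of 2 glutelin genes called, where 28.8% of all genes tested were DEGs, 9.27% higher and 19.5% lower at 25 DPA. Only 141 genes had a larger log2 fold change in that direction. The call held in each of the 22 alternatives run, with log2 fold changes from 2.61 to 3.40, and without replicate 2 of 13 DPA the value was 3.27.

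FtPinG0008579200.01 had a log2 fold change of 0.99 ± 0.40 (SE) from 19 to 25 DPA, just under the fold limit, with an FDR of 0.0792. The mean TMM-scaled level at 25 DPA was 1.98 times that at 19 DPA, and the mean FPKM 1.63 times. Without replicate 2 of 13 DPA, which enters this comparison through the shared estimate of spread, the value was 0.99 with an FDR of 0.00874 and still under the fold limit. The study, which used DESeq, reports both glutelin genes as upregulated over this step. Why its call for FtPinG0008579200.01 differs from the result here was not tested.

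The third comparison set initial maturity against the green fruit stage. FtPinG0000417000.01 passed the test with a log2 fold change of 1.45 ± 0.51 (SE), 2.73-fold higher at 25 DPA, and an FDR of 0.0370. It was again 1 of 2 glutelin genes called, where 42.2% of all genes tested were DEGs, 16.6% higher and 25.6% lower. FtPinG0008579200.01 had a log2 fold change of 0.30 ± 0.40 (SE) and an FDR of 0.553. The comparisons share libraries, so the 3 values of a gene are not independent of each other.

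The third comparison moved with the libraries used and with the scale. Without replicate 2 of 13 DPA the log2 fold changes were 2.48 (FDR 0.000134) for FtPinG0000417000.01 and 0.98 (FDR 0.0110, short of the fold limit) for FtPinG0008579200.01. With totals in place of TMM factors the first was 0.46 (FDR 0.345) and no longer called, and the second turned to -0.73 (FDR 0.0555), while the median of all genes on that scale was -1.19. The FDR of FtPinG0000417000.01 also exceeded 0.05 when any 1 of 6 libraries was left out, namely replicate 1 or 3 of 13 DPA, replicate 1 of 19 DPA or any replicate of 25 DPA, with the highest FDR, 0.110, without replicate 1 of 13 DPA.

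**Figure D2:**
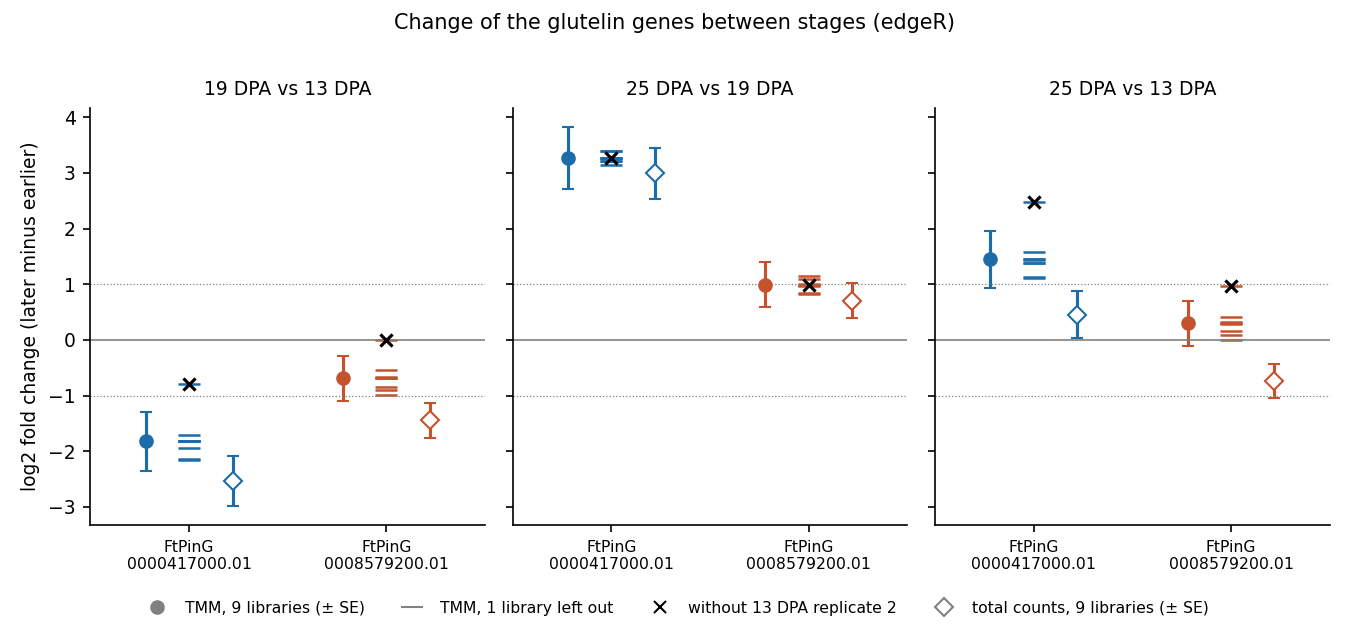
The log2 fold change of each glutelin gene in the 3 comparisons, later minus earlier stage. Filled circles are the values of all 9 libraries with TMM factors and open diamonds those with library totals, both ± SE, dashes are the values with 1 library left out, the cross marks the value without replicate 2 of 13 DPA, and dotted lines mark the fold limit of 1. The value of FtPinG0000417000.01 from 19 to 25 DPA stays near 3.27, while those of both genes against 13 DPA move with that library and with the scale.

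The study's figure draws both glutelin genes lowest at 19 DPA, which was known when the following test was chosen. The FDRs and ranks of that test are therefore not independent evidence. Whether the second step differed from the first was tested as the log2 fold change from 19 to 25 DPA minus that from 13 to 19 DPA. For FtPinG0000417000.01 this difference was 5.10 ± 1.01 (SE), with an FDR of 0.0253, and 79 of the genes tested had a larger one. It was 1 of 2 glutelin genes called, where 7.61% of all genes tested passed at an FDR of 0.05, 2.15% with a positive and 5.46% with a negative difference. FtPinG0008579200.01 had a difference of 1.68 ± 0.72 (SE), with an FDR of 0.170. Without replicate 2 of 13 DPA the differences were 4.06 (FDR 0.00697) and 0.997 (FDR 0.143). The FDR of FtPinG0000417000.01 rose above 0.05 when any library of 19 DPA was left out (0.108, 0.0539 and 0.0778 without replicates 1, 2 and 3) and without replicate 3 of 25 DPA (0.0550).

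The glutelin genes were also set against each other within a library, where the scaling between libraries drops out. For every 100 counts of FtPinG0008579200.01, FtPinG0000417000.01 had 9.77, 15.8 and 11.9 counts at 13 DPA, 6.34, 5.94 and 6.54 counts at 19 DPA, and 29.4, 34.1 and 28.0 counts at 25 DPA. The stages did not overlap, with 19 DPA lowest and 25 DPA highest, but how often other pairs of genes separate in this way was not tested. In deposited FPKM, which corrects for length, FtPinG0008579200.01 was 5.51 to 8.91 times as abundant at 13 DPA, 13.3 to 14.7 times at 19 DPA and 2.56 to 3.11 times at 25 DPA.

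The mean log2 ratio of FtPinG0000417000.01 to FtPinG0008579200.01, with 0.5 added to each count, was -3.03 ± 0.35 (SD, n = 3) in green fruit, -3.99 ± 0.07 at discoloration and -1.72 ± 0.15 at initial maturity. It was lower by 0.96 at 19 than at 13 DPA, 2.27 higher at 25 than at 19 DPA (a 4.82-fold shift), and 1.31 higher at 25 than at 13 DPA. Each difference had a two-sided exact permutation p of 0.1, the smallest that 3 libraries against 3 allow, so these tests could not pass 0.05. Adjusted over the 6 tests of ratios by the Benjamini-Hochberg method, p stayed at 0.1. Without replicate 2 of 13 DPA the differences that involve that stage were -0.78 and 1.49.

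The counts of the glutelin genes were a small fraction of the summed counts of the 6 genes labelled 11S globulin, although each exceeded FtPinG0004288700.01, 1 of the 6, in 9 of 9 libraries. Together the glutelin genes had 220, 229 and 348 counts per 100000 counts of the 11S genes in green fruit, 28.6, 23.3 and 27.0 at discoloration, and 49.4, 68.9 and 66.0 at initial maturity. The stages did not overlap. On the same measure 88.3% of the 23603 genes tested outside the 11S list had every 19 DPA library below every 13 DPA library, 18.9% had every 25 DPA library above every 19 DPA library, and 84.8% had every 25 DPA library below every 13 DPA library. The log2 ratio of summed glutelin to summed 11S counts differed by -3.31 between 13 and 19 DPA, by 1.22 between 19 and 25 DPA and by -2.09 between 13 and 25 DPA, each with a two-sided exact permutation p of 0.1, the smallest possible with n = 3 per stage. The medians of those 23603 genes, measured against the 11S sum in the same way, were -2.75, -0.09 and -2.85. Most genes thus had a lower ratio to the 11S sum at both later stages than at 13 DPA, and 19.5% of genes had a more negative value than the glutelin sum from 13 to 19 DPA. These differences were -3.40 to 19 DPA and -2.19 to 25 DPA when replicate 2 of 13 DPA was left out. At 13 DPA the library with the highest 11S share, replicate 2, also had the highest levels of both glutelin genes. The library with the lowest 11S share, replicate 3, had the lowest TMM-scaled levels. In FPKM replicate 3 was lowest for FtPinG0008579200.01 (71.8), but FtPinG0000417000.01 was at 9.81 there against 9.20 in replicate 1.

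**Figure D3:**
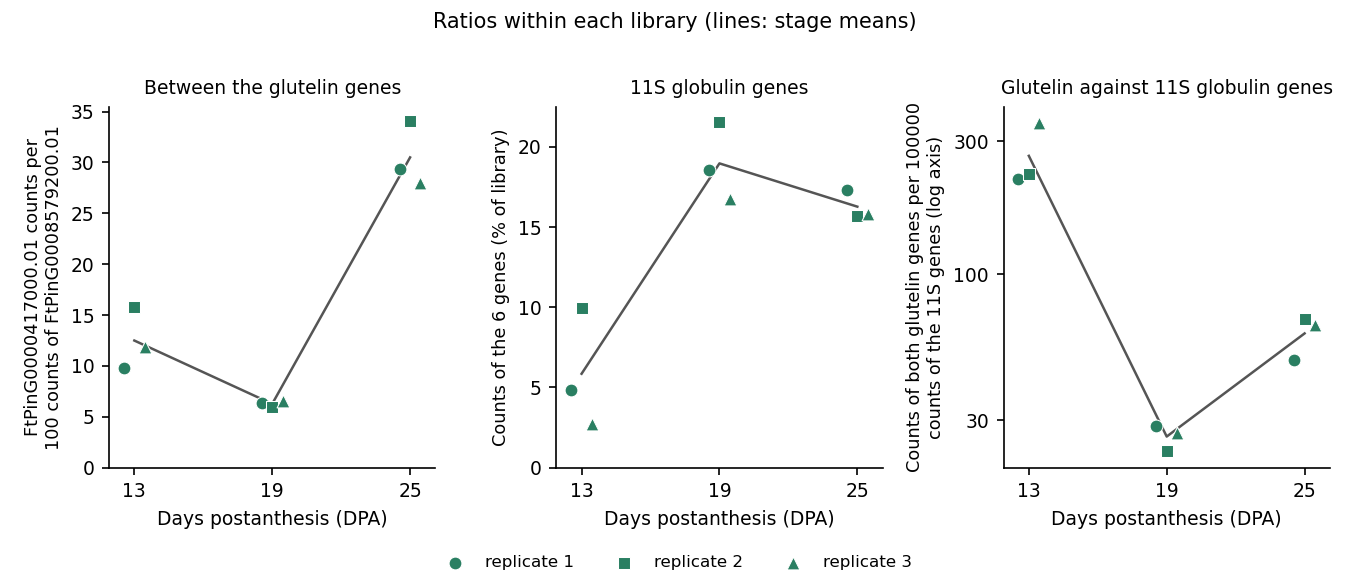
Ratios within each library against days postanthesis. The left panel gives counts of FtPinG0000417000.01 per 100 counts of FtPinG0008579200.01, the middle panel the share of all counts in the 6 genes labelled 11S globulin, and the right panel the counts of both glutelin genes per 100000 counts of those 11S genes on a log axis. Points are libraries and lines join stage means. The left and right panels are lowest at 19 DPA, where the middle panel has its highest stage mean, 19.0%.

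Among the 6 genes labelled 11S globulin, all had their lowest stage mean at 13 DPA, in FPKM and in TMM-scaled CPM alike. Both glutelin genes of the same family had it at 19 DPA on both scales. So did 2 of the 8 genes labelled peptidase A1 in FPKM and 3 in TMM-scaled CPM. Of all genes tested, 29.4% in FPKM and 21.3% in TMM-scaled CPM were lowest at 19 DPA. Without replicate 2 of 13 DPA the TMM-scaled means of FtPinG0008579200.01 at 13 and 19 DPA were nearly equal, 53.8 and 53.3 CPM. From 13 to 19 DPA the median log2 fold change of the 6 genes was 2.51, and 1 of them, FtPinG0000287200.01, was called higher (2.46, FDR 0.0250). The median was 3.20 without replicate 2 of 13 DPA, where 5 were called higher, all but FtPinG0004288700.01, and DESeq2 with all libraries called 6 higher. None was called when replicate 1 of 13 DPA or any replicate of 19 DPA was left out. From 19 to 25 DPA their median was 0.28 and none was called. From 13 to 25 DPA their median was 2.68 and 5 were called higher, against 3.35 and 6 without replicate 2 of 13 DPA. For the difference between the steps none of the 6 was called by edgeR, against 2 called negative without replicate 2 of 13 DPA and 3 called negative by DESeq2.

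Among the 8 genes labelled peptidase A1, 2 were called higher and 1 lower at 19 than at 13 DPA, 3 higher and 2 lower at 25 than at 19 DPA, and 4 higher and 3 lower at 25 than at 13 DPA. The first of these counts became 3 higher and 1 lower without replicate 2 of 13 DPA. By Pearson's r of log2 CPM over the 9 libraries, the genes of this group most like FtPinG0000417000.01 were FtPinG0005837700.01 (r = 0.815) and FtPinG0005094300.01 (r = 0.791), and without replicate 2 of 13 DPA the values were 0.793 and 0.938. FtPinG0005837700.01 had 169, 882 and 71 counts in green fruit, 18, 248 and 25 at discoloration, and 282, 318 and 362 at initial maturity. Its replicate 2 was the highest library at both 13 and 19 DPA, and its log2 fold changes were -0.97 (FDR 0.645) and 1.81 (FDR 0.243). FtPinG0005094300.01, described after its values were seen, had log2 fold changes of -1.28 (FDR 0.164) and then 3.87 (FDR 0.00149). Its difference between the steps was 5.16 ± 1.02 (SE, FDR 0.0250). Its counts were low, with 118, 43 and 90 in green fruit, 15, 18 and 21 at discoloration, and 155, 120 and 370 at initial maturity. Replicate 2 of 13 DPA was the lowest of its stage here, the opposite of the glutelin genes. FtPinG0006507900.01 also had a positive difference between the steps (1.74, FDR 0.0460), with a fall from 13 to 19 DPA (-1.60, FDR 0.0105) and 0.15 (FDR 0.663) from 19 to 25 DPA. Over all 14 other genes, 4, 5 and 12 were DEGs in the 3 comparisons, and since the study chose them as DEGs of these libraries the counts are a description.

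**Figure D4:**
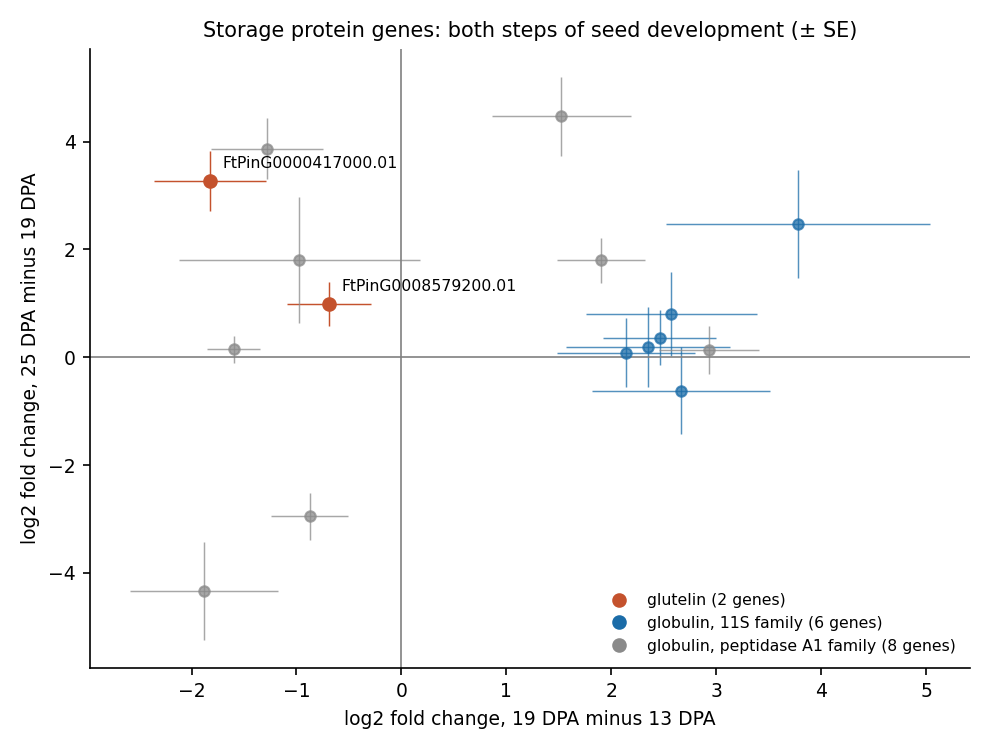
The log2 fold change from 19 to 25 DPA against that from 13 to 19 DPA for the 16 storage protein genes, by edgeR with TMM factors, with bars of ± SE. The glutelin genes lie at -1.82 and 3.27 and at -0.69 and 0.99, left of 0 and above it, while the 6 genes labelled 11S globulin lie right of 0. FtPinG0005094300.01, FtPinG0005837700.01 and FtPinG0006507900.01, labelled peptidase A1, also lie left of 0 and above it, and the rest of the peptidase A1 genes lie elsewhere. Without replicate 2 of 13 DPA the first value was -0.01 for FtPinG0008579200.01 and 0.83 for FtPinG0005837700.01.

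The genes most like each glutelin gene were sought by Pearson's r of log2 CPM over the 9 libraries, which share 3 stages and the high replicate 2 of 13 DPA. These values are a description. For FtPinG0000417000.01 these were Novel01999 (r = 0.990), a gene added by the study's transcript assembly, and FtPinG0007274000.01 (r = 0.987). Novel01999 had 34, 215 and 32 counts at 13 DPA, 12, 12 and 11 counts at 19 DPA, and 133, 168 and 106 counts at 25 DPA. FtPinG0007274000.01 had 29, 118 and 38 counts, then 11, 7 and 7, then 106, 156 and 181. Both repeated the high replicate 2 of 13 DPA and the low 19 DPA libraries. Over the 8 libraries other than replicate 2 of 13 DPA, r was 0.989 for Novel01999, then 7th of the genes compared, and 0.994 for FtPinG0007274000.01, then 1st.

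For FtPinG0008579200.01 the nearest genes were FtPinG0000768500.01 (r = 0.981) and FtPinG0002494800.01 (r = 0.975). FtPinG0000768500.01 had 638, 4209 and 432 counts at 13 DPA, 295, 367 and 159 counts at 19 DPA, and 883, 883 and 876 counts at 25 DPA. FtPinG0002494800.01 had 346, 827 and 295 counts, then 132, 186 and 132, then 214, 255 and 321. Over the same 8 libraries these genes had r = 0.971 and r = 0.961 and ranked 29th and 76th, so that their place at the head of the list rested on that library. The glutelin genes had r = 0.897 with each other, which placed FtPinG0008579200.01 183rd among the 23608 genes compared with FtPinG0000417000.01 and placed the latter 91st in the reverse ranking. Their r was 0.932 over the 8 libraries, where these ranks were lower, 478th and 334th. Over the 9 libraries FtPinG0005837700.01, labelled peptidase A1, had r = 0.891 with FtPinG0008579200.01. The files pair none of these identifiers with a gene name.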

How the data were processed

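RNA from Tartary buckwheat seeds was sequenced in 9 libraries, 3 for each of 13, 19 and 25 DPA, with poly(A) selection and paired-end reads. The submitters' processing notes name TopHat2 2.0.12 and Bowtie2 2.0.6, and the study aligned reads to the Pinku1 genome and added new genes by transcript assembly. The authors deposited raw counts per gene and FPKM per gene, with replicates kept apart. The counter, its strand setting and its handling of reads shared between similar genes go unnamed in the sources at hand, so that counts of near-identical 11S copies are uncertain. Deposited FPKM equalled the deposited count divided by a fixed gene length and the library total, with no factor between libraries, so a few very abundant genes lower the FPKM of all others.

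Counts were tested with edgeR 4.0.16 (R 4.3.3, TMM factors, filterByExpr, robust quasi-likelihood fit of stage over all 9 libraries), which kept 23609 genes. DEGs were genes with FDR no higher than 0.05 and a log2 fold change of 1 or more in size. The methods text of the study breaks off where the fold limit stands, and 1 was assumed. Ratios within libraries were compared by exact permutation tests. The alternatives were other scalings, DESeq2 1.42.0, limma 3.58.1 on log2(FPKM + 1) or log2(FPKM + 0.1), no count filter, 6 libraries of a pair, a replicate block, no fold limit, an FPKM limit and each library left out. The fits were tested on simulated data.

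Across genes, deviations of same-numbered libraries of 13 and 19 DPA from their stage means correlated at 0.353 to 0.590, so these numbers were taken to pair. The labels do not state this pairing, and few matchings exist with 3 libraries a stage, so it remains an assumption. Different numbers gave -0.478 to -0.111, but deviations cancel within a stage, so these negative values are not separate evidence. For 13 and 25 DPA the same-number values were -0.028 to 0.133 and for 19 and 25 DPA 0.026 to 0.197. The numbers of those stages were not taken to pair. Named genes were both glutelin genes, the other 14 genes of the figure where a statement concerned them, and the 2 genes most correlated with each glutelin gene. The glutelin genes, gene lists and tests were chosen with earlier results of these data known. No sequence or genome annotation was used here.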

Additional observations from a re-analysis of the deposited data

How the results depend on the processing

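The rise of FtPinG0000417000.01 from 19 to 25 DPA was called in each of the 22 alternatives. The gene's depth was lowest at 19 DPA, with 62 to 72 counts a library.

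For FtPinG0000417000.01 from 13 to 19 DPA, -1.82 became a call with totals (-2.54), DESeq2 (-1.82), the replicate block (-1.57) and limma (-1.98 with FPKM + 1, -2.27 with FPKM + 0.1, -1.98 without a filter). From 13 to 25 DPA its 1.45 lost the call with totals (0.46), with the 6 libraries of the pair (1.45, FDR 0.0604) and with limma (0.63, 0.67 and 0.63). Leaving out 1 library gave -2.16 to -0.79 from 13 to 19 DPA, 1.11 to 2.48 from 13 to 25 DPA and 4.06 to 5.43 for the difference between the steps.

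For FtPinG0008579200.01 from 13 to 19 DPA, -0.69 became a call with totals (-1.44) and limma (-1.32, -1.34 and -1.32). From 13 to 25 DPA its 0.30 changed sign with totals (-0.73) and limma (-0.63, -0.64 and -0.63), and leaving out 1 library gave -0.00086 (without replicate 3 of 13 DPA) to 0.98. From 19 to 25 DPA it was called only with the replicate block (1.04, FDR 0.0423), a step where replicate numbers were not taken to pair. Its difference between the steps was called only with limma and a filter (2.01 and 2.04). The block changed no other call of either gene. All ratios within libraries kept their direction in the alternatives run, and with the replicate block their exact sign-flip p was 0.25. In the fit with totals only the scaling was changed, and for the other changes of call the cause was not tested.

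Among all genes from 13 to 19 DPA, 970 were higher and 1054 lower, against 594 and 7361 with totals (7955 DEGs). DESeq2 called 3246, the 6 libraries of the pair 1303 and limma 6273, 7646 and 6165. Leaving out 1 library gave 402 (without replicate 1 of 13 DPA) to 3065 (without replicate 2 of 13 DPA). From 19 to 25 DPA, 2189 were higher and 4604 lower, against 1218 and 5522 with totals, 3933 and 5394 once the fold limit was dropped, and 3828 and 4725 once an FPKM limit replaced it, and limma without a filter called 4354 in all. From 13 to 25 DPA, 3910 were higher and 6054 lower, against 1469 and 12513 with totals, 5798 and 7103 once the fold limit was dropped, and 5636 and 6808 once the FPKM limit replaced it. Of the other 14 storage protein genes, 4 were DEGs from 13 to 19 DPA, against 11 with totals, 9 with DESeq2, 11 in each limma fit and 1 (without replicate 1 of 13 DPA) to 9 (without replicate 2 of 13 DPA) with 1 library left out. The likeness of genes without replicate 2 of 13 DPA was computed as an alternative chosen after seeing the data.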
